A study of Mus musculus with 14 samples.

Results

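The clustered histone genes are the multicopy genes for the core histones H2A, H2B, H3 and H4, around which DNA is wound in the nucleosome, and for the linker histone H1, which binds the DNA between nucleosomes. The set was defined by name and type alone: genes annotated as protein-coding whose symbols begin with Hist1h, Hist2h, Hist3h or Hist4h. It held 67 of the 55335 genes in the deposited count table, of which 6 encode H1, 18 H2A, 18 H2B, 12 H3 and 13 H4. On the GRCm38 mouse assembly, 54 of them lay in the Hist1 cluster at chr13:21715763-23934851 and 10 in the Hist2 cluster at chr3:96219865-96270132. The Hist3 cluster on chromosome 11 gave 2 members and Hist4 on chromosome 6 gave 1.

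RNA-seq libraries, 14 in all, had been made from mouse marrow cells sorted for the tdTomato reporter and against lineage markers and CD45. All mice carried Cre recombinase driven by the Cdh5 promoter and a Cre-activated tdTomato gene at Rosa26, so the reporter stays on in every descendant of a cell that once used the Cdh5 promoter. The groups were untreated mice (n = 4), mice given 500 cGy total body irradiation from a caesium source (TBI, n = 5), mice given 20 µCi of non-targeted IgG radioimmunotherapy (IgG RIT, n = 3) and mice given 20 µCi of CD45-targeted radioimmunotherapy (CD45 RIT, n = 2), and marrow was taken 8 days after treatment. Radioimmunotherapy delivers a radionuclide on an antibody, which for the CD45-targeted form is astatine per the series title. Age and sex are not given in the sources used here, nor whether a library came from 1 animal or from a pool, so p-values measure the spread between these libraries only.

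Total counts per library ranged from 16412779 to 31077588. The library names number the untreated libraries 2, 3, 6 and 7 and the TBI libraries 1, 5, 8, 9 and 10. IgG RIT libraries are numbered 11 to 13 and CD45 RIT libraries 15 and 16. The labels name no batch. Library order follows treatment for the RIT groups, so effects of order and of RIT cannot be told apart. The labels call the cells endothelial. The 15 endothelial marker genes summed to between 141 and 181 CPM (counts scaled to a common library size) in untreated, 78.2 and 122 in TBI, 73.0 and 86.7 in IgG RIT, and 117 and 390 in CD45 RIT libraries. Cdh5, Tek and Stab2 were at 0 counts in all IgG RIT and all CD45 RIT libraries, and Emcn and Tie1 in all CD45 RIT ones. In the tests described below, 12 endothelial genes were tested. After CD45 RIT Kdr, Flt4 and Plvap rose and Pecam1, Tie1 and Egfl7 fell, where 14.5% of all genes rose and 18.6% fell. After IgG RIT 0 rose and Pecam1 and Egfl7 fell, where 5.75% of all genes rose and 10.7% fell. The 11 erythroid genes found summed to 6752 to 12362 CPM in untreated, 155730 to 177560 in IgG RIT, and 272730 and 61190 in CD45 RIT replicates 1 and 2. The same sum was 23755 to 37501 CPM in 4 TBI libraries and 206970 in TBI replicate 6. The 12 stromal genes summed to 51469 and 82595 CPM in CD45 RIT and to between 3001 and 7884 in untreated libraries, and the 8 macrophage genes to 3592 and 3011 against 121 to 165 CPM. Stromal sums were 1075 to 2288 CPM in TBI and 492 to 1732 in IgG RIT. The 10 progenitor genes summed to 9500 to 11097 CPM in untreated, 124 to 1282 in TBI, 698 to 989 in IgG RIT, and 24.5 and 68.4 in CD45 RIT libraries. In sorted bulk samples, fewer cells of a type and less RNA per cell cannot be told apart, and the part of cell makeup in the results that follow was not tested.

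Most clustered histone genes are replication-dependent: they are transcribed in S phase, when new DNA has to be packaged, under the control of the coactivator NPAT. Their mRNAs usually lack a poly(A) tail and end just after a conserved stem-loop, which the stem-loop binding protein SLBP holds through processing, export and translation. Some members can also end further downstream with a poly(A) tail, a form known from differentiated cells. The SMART-Seq v4 kit named in the labels starts cDNA synthesis with an oligo-dT primer, so the values here describe the histone RNA that this priming captured.

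The stem-loop, which separates these mRNAs from other mRNAs and marks where they normally end, was searched for in the annotated transcripts (GENCODE M21, GRCm38) and was found after the coding sequence in 46 of 67 members. It came in 8 distinct sequences of 16 bases. In the 12 H4 members with a stem-loop the 5′ arm read GGCCC in 10 and GGTCC in 2, while in all 34 members of the other classes with one it read GGCTC. The sequences below show members of each class that the results turn on, and the H4 variants. The stem-loop is in capitals with 5 flanking bases on each side, as DNA on the coding strand.
Hist1h1c (chr13:23739507-23739532, + strand): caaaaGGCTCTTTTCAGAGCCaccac
Hist1h2ao (chr13:21810893-21810918, + strand): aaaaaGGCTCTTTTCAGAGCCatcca
Hist3h2a (chr11:58955167-58955192, + strand): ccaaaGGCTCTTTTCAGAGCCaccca
Hist1h2bb (chr13:23747198-23747223, + strand): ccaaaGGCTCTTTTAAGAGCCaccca
Hist1h3b (chr13:23752815-23752840, + strand): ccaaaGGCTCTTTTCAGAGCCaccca
Hist1h4h (chr13:23531453-23531478, + strand): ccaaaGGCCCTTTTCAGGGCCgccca
Hist1h4i (chr13:22040961-22040986, - strand): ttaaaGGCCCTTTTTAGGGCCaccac
Hist1h4b (chr13:23757361-23757386, + strand): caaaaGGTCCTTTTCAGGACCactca

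Annotated ends differed among the members. The transcript ended within 100 bases of the stem-loop in 23 members, as in Hist1h4h (46 bases), Hist1h2ao (31 bases) and Hist1h2bb (23 bases). It ran on for more than 100 bases in another 23, as in Hist1h1c (840 bases) and Hist3h2a (1643 bases). No stem-loop lay in the annotated transcript of the remaining 21, and this says only that these letters were not found there. Most of these transcripts are annotated no further than the coding sequence or a base or so past it. Hist1h1b, Hist1h2bl, Hist1h2bn, Hist1h3h and Hist1h4k, for example, have 0 bases after it, so no stem-loop could be found. Hist1h2bc is an exception, with 742 bases after the coding sequence.

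Promoters were matched for 44 members in a RefSeq table (GRCm38.p6), each 250 bases before to 50 bases after the start. The CCAAT box, searched as CCAAT on both strands, was present in 39 of 44 and in 37.4% of all 32851 promoters of the same length in that table. It was in all 38 matched H1, H2a, H2b and H3 promoters and in 1 of 6 H4 promoters. TATAAA was in 25 of 44, or 56.8%, against 13.6% of all promoters. The octamer ATGCAAAT, known from H2B promoters, was in 6 of 12 H2b and 5 of 12 H2a promoters, in 0 of the other 20, and in 1.74% of all promoters. The 250 bases before the start are shown for a member that rose after CD45 RIT (Hist1h1c), for one that fell to 0 counts there (Hist1h2bb), and for an H2a gene that rose after both forms of radioimmunotherapy (Hist3h2a), with these 3 motifs in capitals on either strand.
Hist1h1c (chr13:23738557-23738806, + strand): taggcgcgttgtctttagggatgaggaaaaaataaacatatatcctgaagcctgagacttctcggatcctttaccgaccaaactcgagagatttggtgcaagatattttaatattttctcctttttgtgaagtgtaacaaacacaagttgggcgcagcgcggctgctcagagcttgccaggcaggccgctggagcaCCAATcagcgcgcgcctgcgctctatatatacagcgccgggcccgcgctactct
Hist1h2bb (chr13:23746484-23746733, + strand): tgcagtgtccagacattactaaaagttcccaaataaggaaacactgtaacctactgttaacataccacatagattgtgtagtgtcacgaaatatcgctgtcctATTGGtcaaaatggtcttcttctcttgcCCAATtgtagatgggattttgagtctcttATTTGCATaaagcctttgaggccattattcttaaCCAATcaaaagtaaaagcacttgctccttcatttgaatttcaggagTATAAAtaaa
Hist3h2a (chr11:58954435-58954684, + strand): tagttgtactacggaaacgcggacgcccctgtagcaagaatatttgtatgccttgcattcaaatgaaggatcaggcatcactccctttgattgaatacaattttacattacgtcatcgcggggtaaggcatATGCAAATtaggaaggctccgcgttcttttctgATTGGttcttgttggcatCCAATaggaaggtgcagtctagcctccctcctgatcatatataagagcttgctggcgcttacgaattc
These stretches held 1 CCAAT box in Hist1h1c, 3 in Hist1h2bb and 2 in Hist3h2a, and the octamer was present in Hist1h2bb and Hist3h2a.

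Members of a class are near copies of each other, and how reads matching several genes were counted is not given in the sources used here. More than 50% of the 50-base windows of the annotated transcript were identical to a window of another gene in 34 members. Hist1h2ao and Hist1h2ap, the pair with the most counts, shared 93.5% and 93.1% of their windows with each other, so they are described together where possible. Sharing was lower than in that pair for the members that rose after CD45 RIT: 8.54% for Hist1h1c, 30.6% for Hist1h2bc, 31.5% for Hist3h2a and 45.8% for Hist1h4h. The median share of such windows was 1.13% in H1, 73.0% in H2a, 46.9% in H2b, 62.0% in H3 and 39.5% in H4. Hist1h1c and Hist1h4h thus lay above the median of their class, and Hist1h2bc and Hist3h2a below it. Values of members in shared families are uncertain, and the effect on class sums was not tested.

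Per kilobase of gene length, Hist1h2ao and Hist1h2ap had the highest mean levels in untreated cells, at 292 and 218 CPM per kb. The next members, Hist1h1c, Hist1h1b, Hist1h2ae and Hist1h2bc, lay between 30.2 and 31.2 CPM per kb and did not differ beyond the spread of the libraries. The same pair led in TBI, at 403 and 388, and in IgG RIT, at 1575 and 976 CPM per kb. In CD45 RIT the order was Hist1h1c at 157, Hist1h2bc at 136, Hist1h2ap at 135, Hist1h2ao at 118 and Hist1h4h at 52.5 CPM per kb. The 2 libraries spanned 121 to 193 CPM per kb for Hist1h1c, 74.6 to 198 for Hist1h2bc, 15.1 to 255 for Hist1h2ap and 22.7 to 213 for Hist1h2ao, so the first 4 places did not separate.

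CPM summed over all 67 members was 641, 702, 740 and 509 in the 4 untreated libraries. It was 2247, 2509 and 2653 in IgG RIT, so every IgG RIT library lay above every other library. The TBI libraries gave 543, 776, 503 and 712, within or close to the untreated range, and 1732 in replicate 6, which lay far above it. The CD45 RIT libraries gave 927 and 524. Group means were 648 ± 101 (SD, n = 4) for untreated, 853 ± 504 (SD, n = 5) for TBI, 634 ± 131 (SD, n = 4) for TBI without replicate 6, and 2469.8 ± 206 (SD, n = 3) for IgG RIT. The ratio to untreated was 3.81 for IgG RIT, 1.32 for TBI, 0.978 for TBI without replicate 6, and 1.12 for CD45 RIT. The last turned direction without TMM factors, from 0.16 to -0.56 as a log2 ratio.

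**Figure D1:**
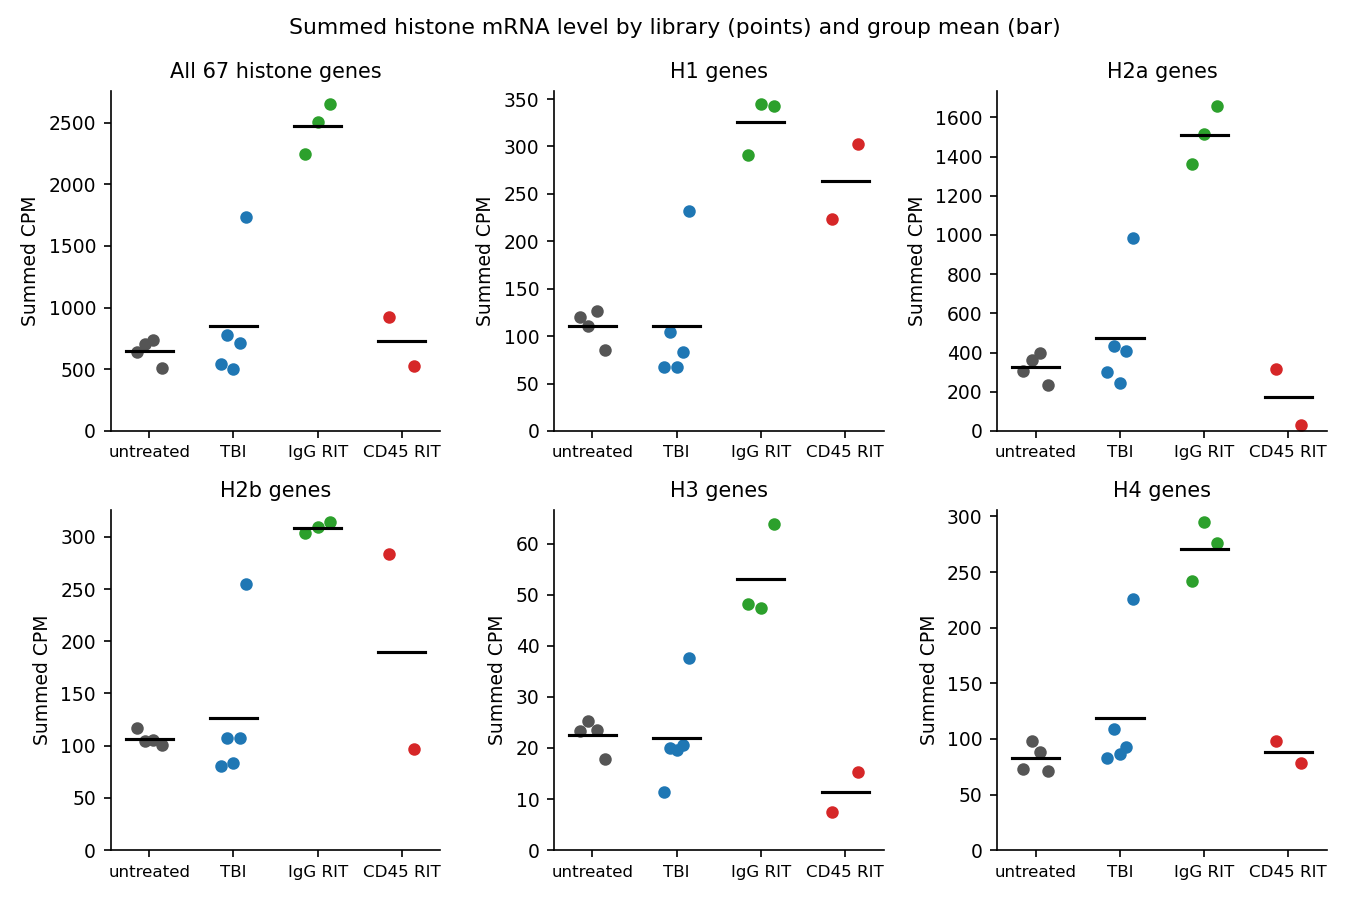
Summed CPM (y axis, linear from 0) of all 67 histone genes and of each class, by group (x axis); each point is 1 library and each bar the group mean. The 3 IgG RIT libraries (2247 to 2653 for all members) lie above all others, TBI replicate 6 (1732) lies above the other TBI libraries, and the CD45 RIT libraries differ most from each other for H2a.

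The class sums did not move by the same factor. After IgG RIT the H2a sum was 4.64 times that in untreated libraries (1511 ± 146 against 325 ± 71.5 CPM, SD), the H4 sum 3.28 times (271 ± 26.9 against 82.7 ± 12.8), the H1 sum 2.95 times (326 ± 30.6 against 111 ± 18.0), the H2b sum 2.89 times (309 ± 5.38 against 107 ± 7.14) and the H3 sum 2.37 times (53.1 ± 9.25 against 22.5 ± 3.24), each with n = 3 against n = 4. Without Hist1h2ao and Hist1h2ap, the ratio over all remaining members was 3.09. After CD45 RIT the H1 sum was 2.38 times and the H2b sum 1.78 times that in untreated libraries, while H2a was 0.531 times and H3 0.505 times. Single genes set the first 2 of these sums. In CD45 RIT, Hist1h1c had a mean of 245 CPM in an H1 sum of 263, and Hist1h2bc 158 in an H2b sum of 190. The median log2 fold change of the tested genes was -1.70 in H1 and -2.95 in H2b. The H4 ratio was 1.07. The CD45 RIT values of the 2 libraries were 224 and 302 CPM for H1, 314 and 31.5 for H2a, 283 and 96.4 for H2b, 7.44 and 15.3 for H3, and 98.4 and 78.7 for H4. For H1 both CD45 RIT libraries lay below IgG RIT replicates 2 and 3 and above all untreated ones. These sums are descriptions, since the members were chosen with results known.

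Of the 67 members, 61 had enough counts to be tested. The others were Hist1h1t, the testis H1 gene, and Hist1h2aa, Hist1h2ba, Hist1h2br, Hist2h2aa1 and Hist2h3c1, with at most 14 counts in any library. Differences were tested with edgeR's quasi-likelihood test fitted to all 14 libraries and 21509 genes, and genes with a Benjamini-Hochberg adjusted p under 0.05 were called.

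After IgG RIT 9 of the 61 tested members rose against untreated and 0 fell, where 5.75% of all genes rose and 16.4% were called in either direction. The called members were 1 H1, 3 H2a, 3 H2b, 1 H3 and 1 H4 gene. The log2 fold change was above 0 in 58 of 61 members, with a median of 1.23, against a median of -0.42 over all genes tested. In 37 members every IgG RIT library lay above every untreated one, which held for 15.6% of all genes tested. In 0 members the reverse held, and 43.1% of all genes did not overlap in either direction.

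Among the linker histones, Hist1h1e was 15.8, 24.03, 22.6 and 18.5 CPM in untreated and 86.9, 112 and 93.8 in IgG RIT libraries. The groups did not overlap, and the gene rose by a log2 fold change of 2.27 (adjusted p = 0.0387, SE 0.68). Hist1h1c was 64.9, 43.5, 50.4 and 35.8 CPM against 103, 126 and 131, also without overlap, but its log2 fold change of 1.30 (SE 0.49) did not pass (adjusted p = 0.0868). Hist1h1b, one of the H1 genes used in dividing cells, was 16.9 to 30.7 CPM against 68.8 to 73.7, with a log2 fold change of 1.64 (adjusted p = 0.268, SE 0.98). Hist1h1a and Hist1h1d were lower in level, at 2.84 to 6.21 and 8.35 to 17.2 CPM in untreated and 6.78 to 12.0 and 25.3 to 31.8 in IgG RIT libraries. In all 5 tested H1 genes the IgG RIT libraries lay above the untreated ones.

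Hist1h2ao, an H2A gene, was 146, 158, 148 and 109 CPM in untreated and 802, 606 and 860 in IgG RIT libraries, a log2 fold change of 2.43 (adjusted p = 0.0157, SE 0.58). Its near copy Hist1h2ap was 84.7, 114, 159 and 61.7 CPM against 336, 593 and 483, with 2.16 (adjusted p = 0.0727, SE 0.77). No untreated library reached an IgG RIT library for either gene, and the order of the 2 copies changed between libraries. The other H2a genes that rose were Hist3h2a, by 2.40 (adjusted p = 0.00962, SE 0.52), and Hist1h2af, by 1.91 (adjusted p = 0.0343, SE 0.55). Hist3h2a was 4.38 to 6.31 CPM in untreated and 24.96 to 29.9 in IgG RIT libraries. Hist1h2ae, the third H2a gene by level, was 14.1 to 29.6 CPM against 72.2 to 132, with 2.23 (adjusted p = 0.109, SE 0.90).

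The H2b genes Hist2h2bb, Hist1h2bn and Hist1h2bf rose, by 2.31, 2.10 and 1.89 on the log2 scale (adjusted p = 0.0429, 0.0437 and 0.0433). Each was low in untreated libraries, at no more than 2.48 CPM. Hist3h2ba had the largest log2 fold change of the set, 3.70 (adjusted p = 0.0565, SE 1.22). It was 5.32, 5.27, 5.81 and 3.26 CPM in untreated and 58.6, 74.2 and 58.6 in IgG RIT libraries, far from overlapping, yet not called. Hist1h2bc was 28.3 to 41.7 CPM against 94.6 to 119, with 1.65 (adjusted p = 0.0545, SE 0.54). Hist1h2bg went against the rest, at 9.01 to 10.6 CPM in untreated and 8.92 to 10.3 in IgG RIT libraries.

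Of the H3 genes, Hist1h3b rose, from 1.28, 1.62, 2.04 and 1.56 CPM in untreated to 7.59, 8.32 and 10.8 in IgG RIT libraries (log2 fold change 2.45, SE 0.53, adjusted p = 0.0113). Of the H4 genes, Hist1h4k rose by 2.09 (adjusted p = 0.0373, SE 0.62), at no more than 2.89 CPM in any of these libraries. Hist1h4d, the H4 gene with the highest mean level, was 20.1, 29.1, 39.7 and 23.4 CPM in untreated and 117, 156 and 142 in IgG RIT libraries, with 2.31 (adjusted p = 0.142, SE 1.03). Its groups were also wide apart.

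**Figure D2:**
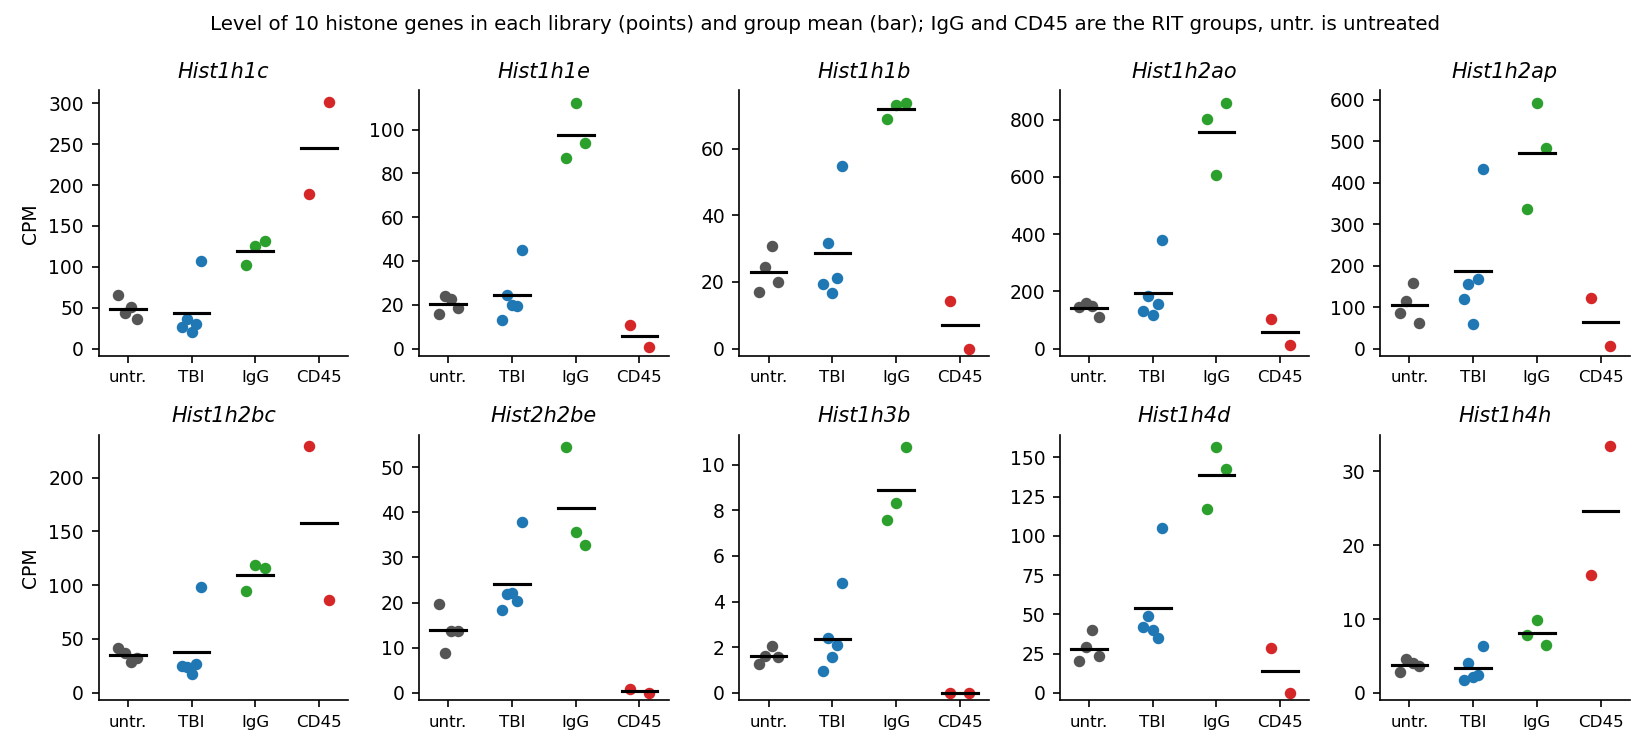
CPM (y axis, linear, scaled for each gene) of 10 histone genes by group (x axis); points are libraries and bars group means. In 7 of the 10 panels IgG RIT has the highest group mean, and Hist1h1c, Hist1h2bc and Hist1h4h are highest after CD45 RIT.

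The number of members called after IgG RIT changed with the libraries fitted. Hist1h2ao, Hist3h2a and Hist1h3b were called with any 1 of the 14 libraries left out, and the other 6 lost the call in at least 1 of these fits. The count was 3 to 29 with 1 library left out, at 27 and 29 without CD45 RIT replicate 1 or 2, 15 without TBI replicate 6, 4 without untreated replicate 1, 2 or 3 or TBI replicate 3, and 3 without untreated replicate 4, TBI replicate 5 or any of the 3 IgG RIT libraries. With only the untreated and IgG RIT libraries it was 38, and 6662 of all genes were then called. The main fit called 3536 of all genes, and the fit without TBI replicate 6 called 4158. In each of these fits the called members were all higher. Scaling by total count alone, without TMM factors, lowered the median of all genes by 0.52 (log2) and left 3 members, with a median log2 fold change over members of 0.70.

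The 2 CD45 RIT libraries differed from each other. In replicate 2, 36 of the 67 members had 0 counts and 47 had 3 or fewer, with 3 counts taken as the detection floor. Replicate 1 had 13 and 16 such members. Over all genes, 17700 had a count in replicate 2 and 20994 in replicate 1, against 21660 to 26752 in the other libraries. The log2 CPM of all tested genes correlated by 0.67 between these 2 libraries. In the other pairs of libraries of the same group it correlated by 0.906 to 0.979. Against the range of the untreated libraries, 11 of the 61 tested members were above it, 12 within and 38 below in replicate 1. In replicate 2, 7 were above, 3 within and 51 below. Such positions of single libraries were not counted over all genes. Both libraries lay above all untreated ones in 17.5% of all genes tested and below them in 29.8%. Several genes were high in 1 of the libraries only. Hist1h4i was 31.3 CPM in replicate 1 and 0 in replicate 2, Hist3h2ba 25.9 and 0, and Hist1h2bh 11.4 and 0.0481. Hist4h4 was 1.65 CPM in replicate 1 and 37.8 in replicate 2, and Hist1h3f 0 and 13.7.

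After CD45 RIT most histone genes were lower than in untreated libraries while a few rose. The test called 4 of 61 members higher and 16 lower, where 14.5% of all genes tested were higher, 18.6% lower and 33.1% called in either direction. The median log2 fold change was -1.80, against -0.37 over all genes. In 4 members both CD45 RIT libraries lay above all untreated ones, and in 35 both lay below, where the same held for 17.5% and 29.8% of all genes. The genes that rose were 1 H1, 1 H2a, 1 H2b and 1 H4 gene. Those that fell were 3 H2a, 8 H2b, 3 H3 and 2 H4 genes.

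Hist1h1c, a linker histone gene that is also expressed outside S phase, was 189 and 302 CPM in CD45 RIT and 35.8 to 64.9 in untreated libraries. It rose by a log2 fold change of 2.33 (adjusted p = 0.00604, SE 0.53). Hist1h2bc was 229 and 86.2 CPM against 28.3 to 41.7, a log2 fold change of 2.18 (adjusted p = 0.0144, SE 0.59). Hist1h4h had the largest rise, 15.9 and 33.4 CPM against 2.86 to 4.52, with 2.72 (adjusted p = 0.00237, SE 0.53). None of these 3 overlapped between the groups. Hist1h4h kept its call with any 1 library left out, while Hist1h1c lost it without CD45 RIT replicate 2 and Hist1h2bc without replicate 1.

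Hist3h2a was 39.0 and 9.77 CPM against 4.38 to 6.31, a log2 fold change of 2.27 (adjusted p = 0.00852, SE 0.56), and was not called without CD45 RIT replicate 1. Its annotation lies inside Trim17 on the same strand and shares 31.5% of its windows with it. Trim17 was 13.4 CPM in CD45 RIT replicate 1, 0.0481 in replicate 2 and at most 1.84 in the other 12 libraries. Its part in the Hist3h2a value was not tested.

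The other linker histones were below untreated in both CD45 RIT libraries in 3 of 4 tested genes. Hist1h1e was 10.9 and 0.529 CPM against 15.8 to 24.03, with a log2 fold change of -1.83 (SE 0.83) that did not pass (adjusted p = 0.106). Hist1h1b was 14.3 CPM and 0 counts, Hist1h1d 4.15 CPM and 0 counts, and Hist1h1a, the one that overlapped, 5.43 CPM and 0 counts. Hist1h1c was the 1 H1 gene above the untreated values in both libraries.

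H2b had the most calls. Hist1h2bb was at 0 counts in both CD45 RIT libraries and 2.38, 5.60, 4.71 and 2.60 CPM in untreated ones, at least 23.4-fold lower against the floor of 3 counts per library (adjusted p = 0.000102). Hist2h2be, which shares no window with another gene, fell by 4.98 in log2 units (adjusted p = 0.00124, SE 0.87), from 8.92 to 19.7 CPM in untreated to 0.854 and 0.0481 in CD45 RIT libraries. Hist1h2bg, at 9.01 to 10.6 CPM in untreated libraries, had 1 count in the 2 CD45 RIT libraries together (adjusted p = 1.8e-05). Hist1h2bj was 9.14 to 13.3 CPM against 0.244 CPM and 0 counts. With the 3 tested H2b genes at 0 counts in both libraries set to their bounds, the median log2 fold change of H2b moved from -2.95 to -1.80.

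The H2a genes that fell were Hist2h2ac, Hist1h2ag and Hist1h2af, each at no more than 1.34 CPM in CD45 RIT libraries. Hist1h2ao was 102 and 10.9 CPM against 109 to 158 in untreated, with a log2 fold change of -1.31 (adjusted p = 0.154, SE 0.69), and Hist1h2ap was 123 and 7.27 CPM against 61.7 to 159. Replicate 1 was close to the untreated libraries for this pair and replicate 2 far below. The H3 genes that fell were Hist1h3b, Hist1h3d and Hist1h3h. Hist1h3b was at 0 counts in both libraries, at least 9.92-fold lower (adjusted p = 0.000344). The H4 genes that fell were Hist1h4f and Hist1h4k, both at no more than 2.18 CPM in untreated libraries.

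**Figure D3:**
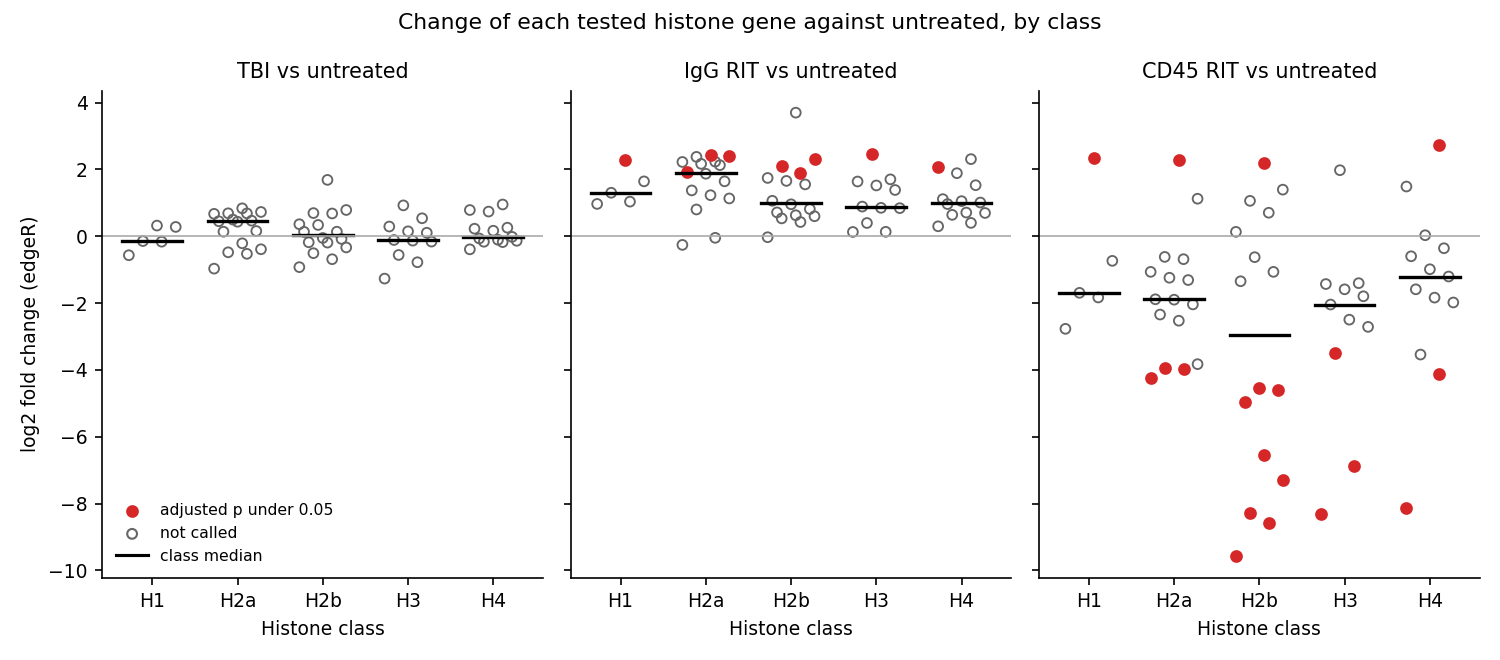
Log2 fold change against untreated (y axis) of the 61 tested histone genes by class (x axis) for 3 treatments; filled points were called, open points were not, and bars are class medians. Values lie around 0 for TBI, mostly above 0 for IgG RIT and mostly below 0 for CD45 RIT with 4 called genes above; for the 6 genes at 0 counts in both CD45 RIT libraries the fitted value depends on the model's prior count and is no bound.

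The CD45 RIT result also depended on single libraries. The median log2 fold change over members was -7.40 without CD45 RIT replicate 1 and -1.10 without replicate 2, against -1.80 in the main fit. With 1 CD45 RIT library left, that library is assumed to vary like the other groups. With only the untreated and CD45 RIT libraries fitted, 13 members (3 higher, 10 lower) and 3995 of all genes were called. Without TMM factors, which lowered the median of all genes by 0.71, 34 members (4 higher, 30 lower) and 7903 of all genes were. The main fit called 7116 of all genes. Of the 20 called members, 15 kept the call with any 1 of the 14 libraries left out. Besides the 3 that rose and are named above, Hist1h4k lost it without CD45 RIT replicate 2 and Hist1h3d without untreated replicate 2.

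The make-up of the histone counts differed as well. Hist1h2ao and Hist1h2ap together took 33.5% to 41.5% of the member counts in untreated libraries, 34.97% to 46.9% in TBI and 47.8% to 50.6% in IgG RIT. In CD45 RIT they took 24.3% and 3.46%. In CD45 RIT replicate 2, Hist1h1c alone took 57.6% and Hist1h2bc 16.5% of the member counts, so a pair of genes outweighed the other 65. The shares rest on 10546 to 50470 member counts per library.

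**Figure D4:**
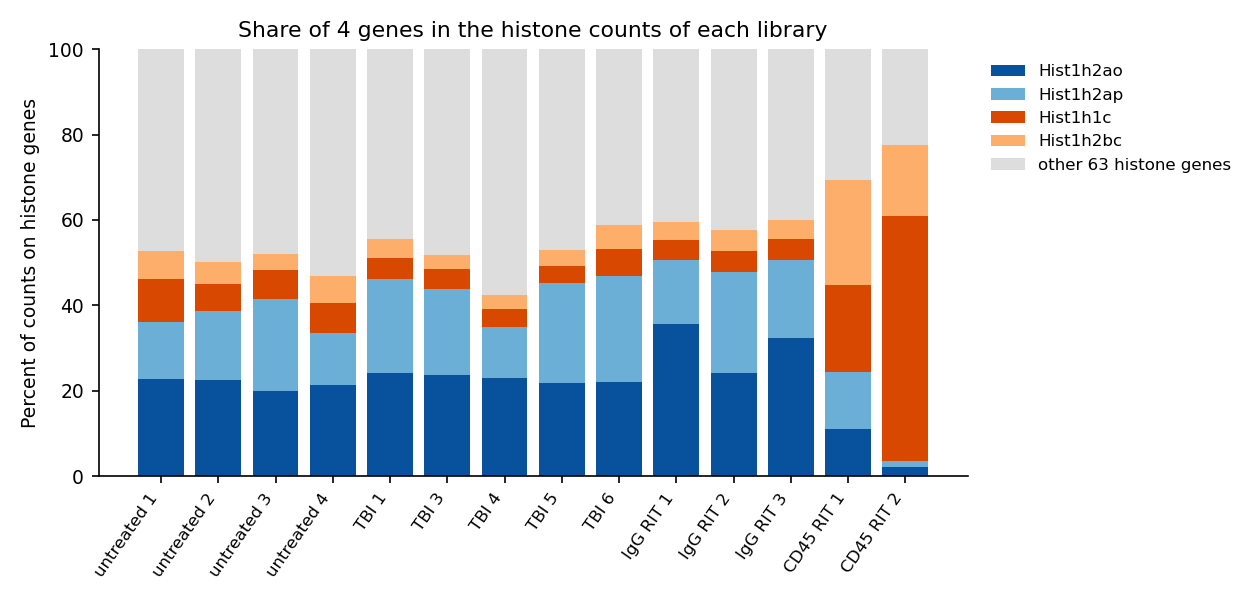
Share of the counts on histone genes (y axis, percent) taken by Hist1h2ao, Hist1h2ap, Hist1h1c, Hist1h2bc and the other 63 members in each of the 14 libraries (x axis). The near-identical pair Hist1h2ao and Hist1h2ap takes more than the other 2 named genes in untreated, TBI and IgG RIT libraries, and Hist1h1c takes 57.6% in CD45 RIT replicate 2.

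Members annotated to end more than 100 bases past the stem-loop took 32.8% to 36.4% of the member counts in untreated, 30.1% to 37.7% in TBI, 28.6% to 31.2% in IgG RIT, and 42.6% and 71.2% in CD45 RIT libraries. Without Hist1h1c these shares were 27.9% to 31.6%, 25.5% to 35.1%, 25.2% to 27.6%, and 27.9% and 32.0%, so that the CD45 RIT values lay within the range of the other groups. After IgG RIT, 2 of 21 tested members with long ends, 3 of 22 with short ends and 4 of 18 without an annotated stem-loop rose. After CD45 RIT, 2, 1 and 1 of them rose and 2, 7 and 7 fell. Of all genes, 5.75% rose after IgG RIT, and 14.5% rose and 18.6% fell after CD45 RIT. No difference between these sets was tested. The set without an annotated stem-loop is mostly one of transcripts annotated no further than the coding sequence, so it is no class of RNA ends.

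Compared directly, CD45 RIT and IgG RIT differed in 33 of the 61 tested members, 1 higher and 32 lower in CD45 RIT, where 37.7% of all genes were called, 20.2% higher and 17.5% lower. The lower ones were 2 H1, 10 H2a, 10 H2b, 6 H3 and 4 H4 genes. The median log2 fold change was -3.24, or -2.97 with genes at 0 counts set to their bounds, against -0.13 over all genes. In 49 members both CD45 RIT libraries lay below all 3 IgG RIT libraries, which held for 29.6% of all genes. The gene higher in CD45 RIT was Hist1h4h, 15.9 and 33.4 CPM against 7.88, 9.86 and 6.52, with a log2 fold change of 1.61 (adjusted p = 0.0431, SE 0.57). It lost the call without CD45 RIT replicate 2 or any of 8 other libraries.

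Among the H1 genes, Hist1h1e was lower in CD45 RIT (log2 fold change -4.10, SE 0.97, adjusted p = 0.00601), as was Hist1h1d (log2 fold change -3.74, SE 1.30, adjusted p = 0.0387). Hist1h1c was 189 and 302 CPM against 103 to 131, without overlap, and did not pass (log2 fold change 1.04, SE 0.58, adjusted p = 0.172). Hist1h2ao (log2 fold change -3.74, SE 0.81, adjusted p = 0.00368) and Hist1h2ap (-2.85, SE 1.03, adjusted p = 0.0447) were both lower. Hist1h1e and Hist1h2ao kept the call in all 14 fits with 1 library left out, Hist1h1d in 5 of them and Hist1h2ap in 3. Hist1h3b had 0 counts in both CD45 RIT libraries against 7.59 to 10.8 CPM, at least 54.4-fold lower (adjusted p = 6.3e-05). With only these 2 groups fitted, 8 members were called, all lower, beside 2217 of all genes.

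Against TBI, CD45 RIT was called in 24 of 61 members, 5 higher and 19 lower, where 38.6% of all genes were called, 19.6% higher and 19% lower. The higher members were Hist1h1c, Hist1h2bc, Hist1h4h, Hist3h2a and Hist2h2aa2. For Hist1h1c (20.7 to 36.2 CPM in 4 TBI libraries and 108 in TBI replicate 6) and Hist1h4h (1.70 to 6.32) the groups did not overlap. For Hist1h2bc, TBI replicate 6 at 98.6 CPM lay above the CD45 RIT library at 86.2, and its call was lost without CD45 RIT replicate 1. The calls of Hist3h2a and Hist2h2aa2 were lost without that library and without TBI replicate 1, 3, 4 or 5. Hist1h2bb was again at 0 counts in both CD45 RIT libraries, at least 22.1-fold lower (adjusted p = 5.5e-05). Without CD45 RIT replicate 1 the median log2 fold change over members was -7.67, against -1.81 with all libraries.

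After TBI, 0 of the 61 tested members were called against untreated by edgeR, where 4.31% of all genes were, 0.921% higher and 3.38% lower. The unadjusted p was under 0.05 for 1 member and for 3925 of the 21509 genes tested. DESeq2 called 1 member lower, beside 2486 of all genes called in either direction. The member with the unadjusted p under 0.05 was Hist1h3e, at a mean of 1.35 CPM against 3.27 in untreated (log2 fold change -1.27, SE 0.41, adjusted p = 0.105). The median log2 fold change was 0.13, with 32 of 61 members above 0. The groups did not overlap in 1 member that was higher, Hist1h4i, and in 2 that were lower, Hist1h3e and Hist1h2bg, where the same held for 6.34% and 12.8% of all genes. The largest log2 fold change was that of Hist3h2ba, 1.68 (adjusted p = 0.459, SE 1.06). It was 9.20, 12.1, 4.91 and 10.0 CPM in 4 TBI libraries and 42.9 in replicate 6.

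TBI replicate 6, library number 10 and next in order to the IgG RIT libraries, stood apart from the other TBI libraries in these genes. The part of library order in this was not tested. TBI replicate 6 was above the other 4 TBI libraries in 54 of 61 tested members and below all of them in 0. Of the 61, it lay below the IgG RIT range in 33, within it in 21 and above it in 7. Positions like these were not counted over all genes. Over all tested genes TBI replicate 6 also stood apart. Its log2 CPM correlated by 0.911 to 0.923 with the other TBI libraries, against 0.956 to 0.979 among those. Its erythroid sum of 206970 CPM was above those of the 3 IgG RIT libraries, and the part of that in the histone levels was not tested. Without it, the median log2 fold change of the members after TBI was -0.28 and 0 were called.

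Between IgG RIT and TBI the log2 fold change was above 0 in all 61 tested members, from 0.22 to 2.03, with a median of 1.28 against -0.16 over all genes. edgeR's test called 0 of them, where it called 0.242% of all genes, and 0.0697% of all genes as higher. The unadjusted p was under 0.05 in 19 members, all higher, and in 3984 of the 21509 genes tested, 1419 of them higher. DESeq2 called 14 members, all higher, beside 2099 of all genes, 760 of them higher. In 30 members the groups did not overlap, all of them higher in IgG RIT. That held for 8.37% of all genes, the reverse for 8.44%, and either for 16.8%. Hist1h2ao had a log2 fold change of 1.97 (adjusted p = 0.0977, SE 0.54) and Hist1h1e one of 1.99 (adjusted p = 0.131, SE 0.63). Without TBI replicate 6, 13 members were called, all higher, beside 2025 of all genes, 806 of them higher. The main fit called 52 of all genes. The number called also moved without CD45 RIT replicate 1 or 2, which belong to neither group. The median log2 fold change over members was then 1.25 and 1.33.

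The machinery that makes and handles histone mRNA was read from lists of other genes. Slbp, the stem-loop binding protein, was 323 to 541 CPM in untreated, 938 to 1141 in IgG RIT, and 130 and 382 in CD45 RIT libraries. It rose after IgG RIT (log2 fold change 1.24, SE 0.31, adjusted p = 0.0188), though not without untreated replicate 2 or IgG RIT replicate 1 or 3. After CD45 RIT the log2 fold change of -0.81 (SE 0.37) did not pass (adjusted p = 0.103). Npat was 17.7 to 28.2 CPM in untreated, 42.0 to 58.8 in IgG RIT and between 0 and 32.0 in CD45 RIT, and was called in neither comparison. Of 13 tested processing genes, 2 rose and 1 fell after IgG RIT, and 0 rose and 2 fell after CD45 RIT. Over all genes tested, 5.75% rose and 10.7% fell after IgG RIT, and 14.5% rose and 18.6% fell after CD45 RIT. Of 19 histone chaperone genes, 6 rose and 1 fell after IgG RIT, and 0 rose and 8 fell after CD45 RIT. Those that fell after CD45 RIT included Nasp. They also included Chaf1a and Chaf1b, whose products hand new H3 and H4 to replicating DNA.

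The variant histones, which lie outside the clusters and are mostly made as polyadenylated mRNA in all phases, behaved unevenly. Of 11 tested, 4 rose and 2 fell after IgG RIT, and 2 rose and 4 fell after CD45 RIT, where 16.4% and 33.1% of all genes were called in either direction. H2afx, the variant phosphorylated at DNA breaks, rose after IgG RIT (log2 fold change 1.54, SE 0.27, adjusted p = 0.00398). H2afz fell by 1.97 on the log2 scale after CD45 RIT (adjusted p = 4.3e-05, SE 0.21), from 962 to 1169 CPM in untreated to between 224 and 321. H1f0, a linker variant of non-dividing cells, rose after CD45 RIT (log2 fold change 1.23, SE 0.40, adjusted p = 0.0316). It was 117 and 405 CPM against 90.8 to 127, so the groups overlapped, and it was not called without CD45 RIT replicate 2 or without untreated replicate 2, 3 or 4. H3f3b was 1469 to 1753 CPM in untreated and 1699 and 1767 in CD45 RIT libraries.

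Genes of DNA replication gave another view of S phase. The 23 S-phase genes summed to 5344 to 7271 CPM in untreated, 9691 to 13420 in TBI, 12596 to 14159 in IgG RIT, and 3136 and 787 in CD45 RIT libraries. After IgG RIT 10 of 23 rose and 0 fell, after TBI 4 rose and 0 fell, and after CD45 RIT 0 rose and 11 fell. Of all genes, 5.75% rose after IgG RIT, 0.921% rose after TBI and 18.6% fell after CD45 RIT. Pcna, the sliding clamp of DNA polymerase, rose after IgG RIT (log2 fold change 0.99, SE 0.28, adjusted p = 0.0294), a call lost without any 1 of the untreated or IgG RIT libraries. It had a log2 fold change of -1.99 after CD45 RIT (adjusted p = 0.00121, SE 0.35). The histone sum divided by the S-phase sum was 0.0700 to 0.131 in untreated, 0.0461 to 0.0722 in 4 TBI libraries and 0.129 in TBI replicate 6, 0.159 to 0.199 in IgG RIT, and 0.296 and 0.666 in CD45 RIT libraries. In CD45 RIT replicates 1 and 2, Hist1h1c and Hist1h2bc together made up 45.1% and 74.0% of the histone sum. In untreated libraries Hist1h1c took 6.19% to 10.1% and Hist1h2bc 3.83% to 6.51%. The ratio without these genes was not computed. The 4 TBI libraries other than replicate 6 lay above all untreated ones for the S-phase sum, while 2 of them lay within the untreated range for the histone sum, 1 just above and 1 just below it.

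**Figure D5:**
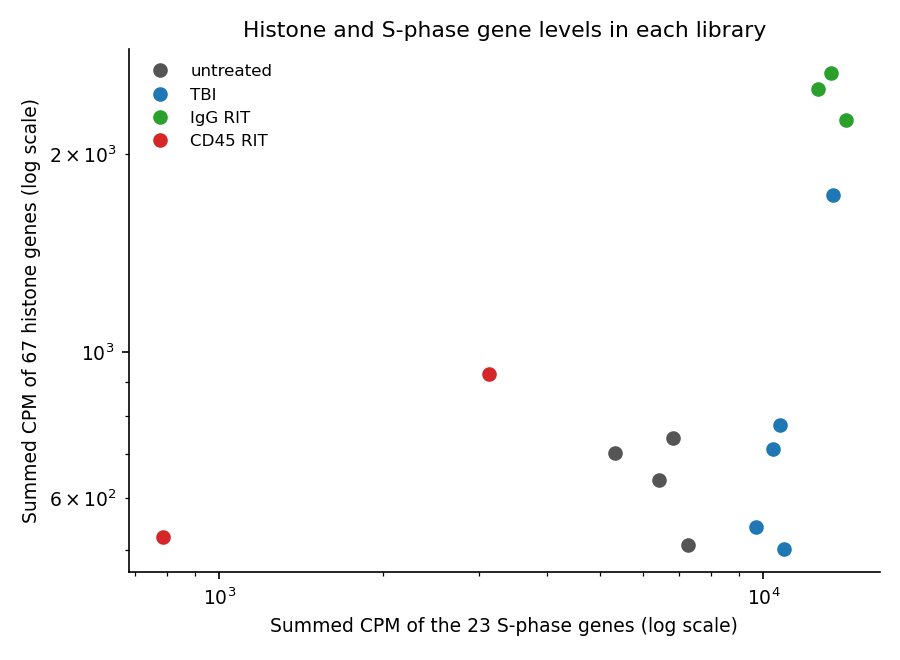
Summed CPM of the 67 histone genes (y axis, log scale) against that of 23 S-phase genes (x axis, log scale) in each library, coloured by group. IgG RIT libraries are high on both axes, 4 TBI libraries are high on the S-phase axis at histone sums of 503 to 776, and the CD45 RIT libraries have the lowest S-phase sums at histone sums of 927 and 524. Hist1h1c and Hist1h2bc together make up 45.1% and 74.0% of the CD45 RIT histone sums.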

How the data were processed

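RNA was amplified with SMART-Seq v4 and made into libraries with Nextera XT, per the labels' protocols. The authors deposited raw counts per gene with gene length, and the submitters' processing notes list STAR 2.7.7a, FastQC 0.11.9, edgeR 3.36.0 and a build named hg38. The deposited coordinates equal GENCODE M21 (GRCm38) for 54587 of 54587 matched identifiers, and that build is used here. The counter, its use of strand and its handling of reads that match several genes are not given in the sources used here, and 21 members overlap a gene on the other strand.

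The tests used edgeR 4.0.16 in R 4.3.3: filterByExpr (minimum count 10, minimum total 15), TMM factors, and a robust quasi-likelihood fit of 1 coefficient per group to 14 libraries, with 6 contrasts and Benjamini-Hochberg adjustment over 21509 genes. The fit was tested on simulated data. CPM use TMM-scaled library sizes. The SE beside a log2 fold change is its absolute value divided by the square root of the test's F statistic. It is therefore no measure of spread apart from that test. With 3 counts as the floor, a fold against a group at 0 counts is a lower bound. SMART-Seq reads carry no molecular identifiers, so floors cover counting error only. Alternatives were median-of-ratios factors, no factors, no filter, DESeq2 1.42.0, a replicate block, 2 groups only, and each library left out. The members and lists were chosen with earlier results of these data known. Named genes are the 3 members with the highest mean in each class, the called members with the largest rise and fall in each contrast, all H1 members and 8 fixed other genes; further genes named were chosen after their values were seen. The main tests did not pair libraries by replicate number, which the closing section describes, and TBI replicate 2 was not analysed here.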

Additional observations from a re-analysis of the deposited data

Results flagged for a closer look

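In groups of 4 or 5 libraries, the gap between the highest or lowest library and its neighbour was compared with the range of the group, and chance alone flags about 1 in 20 groups. Of 70 such groups looked at, 17 passed. Among those that passed, TBI replicate 6 was the outlying highest TBI library for 11 named genes: Hist1h2ao (380 CPM), Hist1h2ap (432), Hist1h1c (108), Hist1h2bc (98.6), Hist1h4d (105), Hist1h4i (42.6), Hist3h2ba (42.9), Hist2h2be (37.8), Hist1h1d (17.9), H2afx (671) and Mki67 (1406 CPM). It was also the highest for other named genes that did not pass, such as Slbp and Pcna. The same library passed as the highest for the summed level of all members (1732 CPM), of H1 (232), H2a (983), H2b (255) and H4 (225 CPM). Its erythroid sum was 206970 CPM against at most 37501 in the other TBI libraries, and the part of that in these levels was not tested. Untreated replicate 2 stood above the other untreated libraries for Hist1h3d, at 7.03 CPM against 3.27 to 3.69.

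The 3 histone-named pseudogene rows outside the set were also higher after IgG RIT, with their lowest IgG RIT library above all untreated libraries. That library was at 5.23 CPM for Hist3h2bb-ps (untreated up to 1.76), 5.83 for Hist1h2aj (up to 2.25) and 2.44 for Hist1h2al (up to 1.05). Hist3h2ba shares 22.1% of its windows with Hist3h2bb-ps.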

How the results depend on the processing

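Over all alternatives the called members of a contrast kept the sign of their log2 fold change, while counts of calls moved. After IgG RIT, 9 members and 3536 of all genes were called against untreated. Median-of-ratios factors gave 11 and 3315, no scaling factors 3 and 5061, and no filter 4 and 2613. DESeq2 gave 24 and 5950, and only the 2 groups 38 and 6662. After CD45 RIT against untreated, 20 members and 7116 of all genes were called. Without scaling factors these were 34 and 7903, and with only the 2 groups 13 and 3995. Between CD45 RIT and IgG RIT the 33 became 8 with only the 2 groups, and the 8108 of all genes became 2217. Between IgG RIT and TBI the 0 became 14 by DESeq2 and 3 with only the 2 groups. The 52 of all genes called became 2099 and 850. After TBI the 0 became 1 by DESeq2 and 2 with only libraries numbered under 10. The 926 of all genes called became 2486 and 4005. With 1 library left out, counts ranged from 0 to 1 (TBI against untreated), 3 to 29 (IgG RIT against untreated), 19 to 49 (CD45 RIT against untreated), 24 to 49 (CD45 RIT against IgG RIT), 20 to 49 (CD45 RIT against TBI) and 0 to 18 (IgG RIT against TBI). The log2 ratio of summed levels after IgG RIT was 1.93, with 1.41 without scaling factors and a median over members of 1.23. After CD45 RIT it was 0.16, with -0.56 without scaling factors and a median over members of -1.80, and against IgG RIT it was -1.77 with a median of -3.24. The cause of these shifts was not tested.

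Replicate numbers are shared between groups, and the labels state no pairing. The deviations of same-numbered libraries from their group mean correlated by -0.0896 to 0.139 over 13 pairs, with 1 over 0.1. Best correlation with the own number was seen in 3 libraries. With groups this small, these values cannot settle whether libraries were paired. With a replicate block, 5 members were called after IgG RIT and 20 between CD45 RIT and IgG RIT. Of all genes, 2063 and 5098 were called. The floor of 3 counts was between 0.0786 and 0.215 CPM, highest in TBI replicate 6, and members below it cannot be told from 0.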
